A study of Mus musculus with 8 samples.

Results

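The genes of the basement membrane were examined in mouse embryonic stem cells (ESC) after depletion of Rad21, a core subunit of the cohesin ring. The 10 genes taken were Col4a1 and Col4a2 for the collagen IV chains, Lama1, Lama5, Lamb1 and Lamc1 for laminin chains, Nid1 and Nid2 for the nidogens, Hspg2 for the proteoglycan perlecan and Sparc for a collagen-binding glycoprotein. A probe set was counted as a member if its only gene symbol was one of these names, and all 10 genes were measured, by 22 probe sets, among 18193 genes on the array. The probe set with the highest mean over all arrays stood for its gene, and every other probe set is given beside it.

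Both groups were R1/E cells, a mouse ESC line that the study kept without feeder cells, transfected with esiRNA, an enzymatically made mixture of short interfering RNAs. The knock-down group of 4 arrays received esiRNA against Rad21, and the control group of 4 arrays received esiRNA against luciferase (Luc), which has no target in mouse cells. RNA was taken after 48 h from wells seeded with 80000 cells and 800 ng of esiRNA, and by the labels the replicates are biological ones, numbered 1 to 4 in each group. All values are GCRMA values, that is background-corrected and normalized hybridisation signals on the log2 scale, in which 1 unit is a 2-fold difference. The depletion was partial: at its brightest probe set Rad21 fell to 33.4% of the control signal (log2 change -1.58 ± 0.21 SE, limma, adjusted p = 0.00222), and its other probe sets, which fell too, kept 50.6% and 16.6%. A single cell line was used, and in a bulk sample fewer cells of a type and less RNA per cell cannot be told apart.

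The basement membrane is a thin sheet of matrix under epithelia and around other tissues, and it is the first matrix that the early mouse embryo lays down. Laminin is secreted as a heterotrimer of an alpha, a beta and a gamma chain and polymerises on the cell surface, where integrins and dystroglycan hold it. Collagen IV, a trimer of chains that are wound together in the endoplasmic reticulum, forms a second network, and nidogens and perlecan link the networks to each other. In the embryo the primitive endoderm and its derivatives secrete large amounts of these proteins, and the parietal endoderm builds Reichert's membrane from them.

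Col4a1 and Col4a2 lie head to head, an arrangement shared by the collagen IV gene pairs of mammals. The RefSeq promoter table of GRCm38.p6 starts Col4a2 at position 11312805 of chromosome 8 on the plus strand and Col4a1 at position 11312826 on the minus strand, so transcripts from these starts share 22 bases. The Col4a1 gene record of that assembly reaches further upstream, which makes the overlap of the whole records longer. The overlap is shown because the gene pair that shares it is the collagen pair followed below. Its plus strand, 30 bases at chr8:11312801-11312830 with the shared bases in capitals, reads:
Col4a1 and Col4a2 start: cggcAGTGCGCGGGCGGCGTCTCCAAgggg
The shared bases hold 1 copy of GGGCGG, the GC box. Of the 10 genes, 7 had an entry in this table, and Lama1, Lamc1 and Nid2 had none. The 250 bases before the table's start are printed for Nid1, which fell, and for Sparc, which rose, as a pair of unlike windows from genes with opposite changes. They lie at chr13:13437352-13437601 on the plus strand for Nid1 and at chr11:55420081-55420330 on the minus strand for Sparc, are written 5′ to 3′ along the gene, and have matches to a searched motif in capitals:
Nid1 upstream: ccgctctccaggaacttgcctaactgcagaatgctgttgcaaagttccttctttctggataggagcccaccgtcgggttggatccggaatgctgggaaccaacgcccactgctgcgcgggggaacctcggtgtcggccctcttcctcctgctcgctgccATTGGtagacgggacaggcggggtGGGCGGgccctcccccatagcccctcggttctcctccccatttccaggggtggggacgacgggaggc
Sparc upstream: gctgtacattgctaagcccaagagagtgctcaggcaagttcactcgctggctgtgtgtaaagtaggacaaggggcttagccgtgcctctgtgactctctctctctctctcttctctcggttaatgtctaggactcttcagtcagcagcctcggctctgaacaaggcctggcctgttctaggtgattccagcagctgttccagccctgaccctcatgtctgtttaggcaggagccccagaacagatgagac
A set of 4 motifs was searched on both strands, the GC box GGGCGG, the CCAAT box CCAAT, the TATA box TATAAA and the GATA site AGATAA. The Nid1 window had 64.4% G and C, 1 GC box and 1 CCAAT box, the latter read on the other strand as ATTGG. The Sparc window had 54% G and C and held none of these letters. In the 250 bases before the table's start, Hspg2 had 5 GC boxes, Lama5 had 4, and Lamb1 and Col4a2 had 2 each, while Col4a1 had 0. For Hspg2, Lama5, Lamb1 and Col4a1 that start lies inside the gene record, so part of the window is inside the gene, whereas for Col4a2, Nid1 and Sparc it is where the gene record begins. The whole Col4a2 window lies within the Col4a1 gene record, and the whole Col4a1 window lies within that of Col4a2. The windows of Col4a1, Col4a2 and Lamb1, which rose, held 1 CCAAT box each, as that of Nid1 did, and those of Lama5 and Hspg2 held 0. No window of the 7 genes held the TATA box or the GATA site. Among all 32851 promoter windows of this length, 32.7% held the GC box, 33.8% the CCAAT box, 12.4% the TATA box and 9.99% the GATA site, so the GC box and the CCAAT box are common letters in such windows. A match is a description of the sequence and was not tested as a binding site.

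Depletion of Rad21 moved the basement membrane genes in both directions. Col4a1, Col4a2, Lama5, Lamb1, Nid2 and Sparc rose, Lamc1 and Nid1 fell, and Lama1 and Hspg2 did not pass the test. Thus 6 of 10 genes rose, where 10.1% of all genes were called higher, and 2 of 10 fell, where 12.6% of all genes were called lower (limma, adjusted p under 0.05 over all 45037 probe sets). By probe set, 8 of 22 were higher, 3 were lower and 11 were not called, against 14.9% of all probe sets called in either direction. The control and knock-down arrays did not overlap in 8 of the 10 genes, and 27.8% of all genes showed no overlap. The median change of the members was 0.36 on the log2 scale, and that of all genes was 0.00334. At the brightest probe sets only Col4a1 reached a change of 2-fold. All 10 genes had a mean of 4 or more in both groups, whereas the array medians lay between 3.08 and 3.16. The shares over all genes thus include many genes of low signal, in which a change can be missed. A share among well-expressed genes was not computed, and the 10 genes were chosen with earlier results of these data known.

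**Figure D1:**
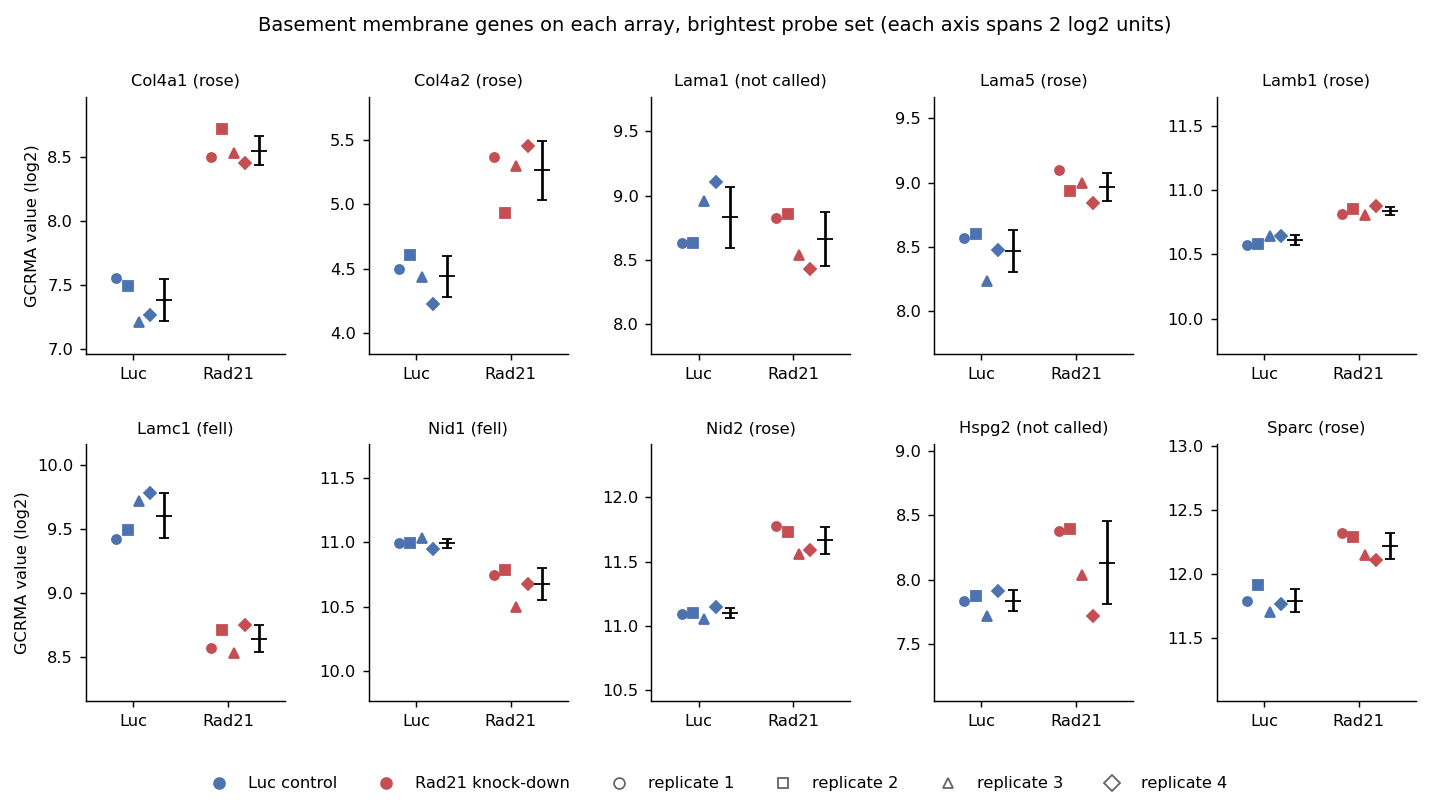
GCRMA values (log2, vertical axis) of the brightest probe set of each of the 10 genes on 4 Luc and 4 Rad21 arrays. Bars give mean and SD per group (n = 4), and symbols tell the replicates apart. Each vertical axis spans 2 log2 units. Col4a1 shows the widest gap between the groups, Lamc1 the widest gap in the other direction, and the groups of Lama1 and Hspg2 overlap.

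The collagen IV chains alpha 1 and alpha 2, which assemble into the most widespread collagen IV trimer, both rose. Col4a1 had values of 7.56, 7.49, 7.22 and 7.27 on Luc arrays 1 to 4 and of 8.49, 8.71, 8.53 and 8.45 on Rad21 arrays 1 to 4. Every knock-down array was thus above every control array, and the lowest of them was well above the highest control. The mean went from 7.38 ± 0.17 to 8.55 ± 0.12 (SD, n = 4), a rise of 2.24-fold (log2 change 1.16 ± 0.09 SE, 95% interval 0.95 to 1.38, limma adjusted p = 2.28e-04). The other Col4a1 probe set, 1426348_at, had almost no signal on any array (mean 2.80 in the control and 2.84 in the knock-down) and was not called (limma, adjusted p = 0.703), so a change at its target could hardly be seen. Col4a2, measured by 1 probe set, had values of 4.50, 4.61, 4.43 and 4.22 in the control and of 5.37, 4.93, 5.30 and 5.45 in the knock-down. The groups were apart here as well, with Rad21 array 2 closest to the control. Its mean rose from 4.44 ± 0.16 to 5.26 ± 0.23, or 1.77-fold (log2 change 0.82 ± 0.13 SE, limma adjusted p = 0.00426).

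The laminin chains did not move together. Lamc1 encodes the gamma 1 chain, which most laminin trimers contain, and it had the largest fall of the 10 genes. Its values were 9.42, 9.49, 9.71 and 9.78 in the control and 8.57, 8.72, 8.54 and 8.75 in the knock-down, so all knock-down arrays were below all controls. The mean went from 9.60 ± 0.17 to 8.64 ± 0.10 (SD, n = 4), leaving 51.5% of the control signal (log2 change -0.96 ± 0.09 SE, limma adjusted p = 5.62e-04). The dimmer Lamc1 probe set, 1423886_at, fell too, with values of 6.52, 7.33, 7.29 and 7.56 in the control and of 5.79, 5.88, 5.28 and 5.83 in the knock-down. Its change was larger and less precise, -1.48 ± 0.24 on the log2 scale (limma, adjusted p = 0.0055).

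Lamb1, the beta 1 chain, rose by a small amount that was nonetheless regular across arrays. Control values were 10.57, 10.58, 10.64 and 10.64, and knock-down values were 10.81, 10.85, 10.81 and 10.88. With an SD of 0.04 in the control and 0.03 in the knock-down, the gap exceeded the spread within both groups. The change was 1.17-fold (log2 0.23 ± 0.03 SE, limma adjusted p = 0.00125). The next brightest Lamb1 probe set, 1424113_at, rose by 0.28 ± 0.06 (limma, adjusted p = 0.0234). Of the others, 1451241_at differed by 0.01 ± 0.10 and was not called (limma, adjusted p = 0.992), and 1446180_at was dim, that is with a mean under 4 in both groups. The probe sets of Lamb1 therefore gave unequal answers, although the 2 brightest both rose.

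Lama5, the alpha 5 chain, a part of the laminins on which ESC attach and grow, also rose. It was measured at 8.57, 8.60, 8.24 and 8.48 in the control and at 9.10, 8.93, 8.997 and 8.84 in the knock-down. Again no knock-down array reached down to the controls. The mean changed from 8.47 ± 0.16 to 8.97 ± 0.11, a 1.41-fold rise (log2 change 0.50 ± 0.09 SE, limma adjusted p = 0.00874). Of its other probe sets, 1427010_s_at differed by 0.28 ± 0.12 in the same direction without passing the test (limma, adjusted p = 0.192), and 1459614_at was dim.

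Lama1, the alpha 1 chain, which belongs to the main laminin of Reichert's membrane, was not called. Values were 8.63, 8.63, 8.96 and 9.10 in the control and 8.82, 8.85, 8.54 and 8.43 in the knock-down. The groups overlapped: replicates 1 and 2 were slightly higher in the knock-down than in the control, whereas replicates 3 and 4 were lower. The pooled change was -0.17 ± 0.14 SE, with a 95% interval from -0.50 to 0.17 (limma, adjusted p = 0.631).

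The nidogens, a pair of related proteins that bridge laminin and collagen IV, went in opposite directions. Nid1 had values of 10.997, 10.99, 11.03 and 10.95 in the control and of 10.75, 10.78, 10.50 and 10.68 in the knock-down. All 4 knock-down arrays were lower, with Rad21 array 3 the lowest. The fall was 1.25-fold (log2 change -0.32 ± 0.06 SE, limma adjusted p = 0.0117). Another Nid1 probe set, 1448469_at, lay close to the low end and differed by -0.60 ± 0.21 without passing the test (limma, adjusted p = 0.112), and 1441519_at was dim. Nid2, with 1 probe set, had values of 11.09, 11.10, 11.05 and 11.15 in the control and of 11.78, 11.73, 11.56 and 11.59 in the knock-down. The control arrays lay within an SD of 0.04 and the knock-down arrays were all above them. This was a 1.48-fold rise (log2 change 0.57 ± 0.05 SE, limma adjusted p = 4.74e-04).

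Of the associated proteins, Sparc rose and Hspg2 did not pass the test. Sparc, which binds collagen IV and is made in large amounts by parietal endoderm, had values of 11.79, 11.91, 11.71 and 11.77 in the control and of 12.32, 12.29, 12.15 and 12.11 in the knock-down. The groups did not overlap, and the rise was 1.34-fold (log2 change 0.42 ± 0.06 SE, limma adjusted p = 0.00355). Another Sparc probe set, 1448392_at, rose by 0.58 ± 0.07 (limma, adjusted p = 0.00137), and 1458204_at was dim. Hspg2, which encodes the heparan sulfate proteoglycan perlecan, was measured at 7.84, 7.88, 7.72 and 7.92 in the control and at 8.38, 8.40, 8.04 and 7.71 in the knock-down. On 3 of the 4 knock-down arrays Hspg2 was above the controls and on Rad21 array 4 it was not. The change of 0.29 ± 0.15 SE had a 95% interval from -0.06 to 0.65 (limma, adjusted p = 0.319), and without Rad21 array 4 it was 0.43 and was called (limma, adjusted p = 0.0340). The other Hspg2 probe set, 1418669_at, differed by 0.29 ± 0.14 (limma, adjusted p = 0.266). There Rad21 array 4, at 8.04, was above all controls, and Rad21 array 1, at 7.70, was the lowest of the knock-down arrays.

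**Figure D2:**
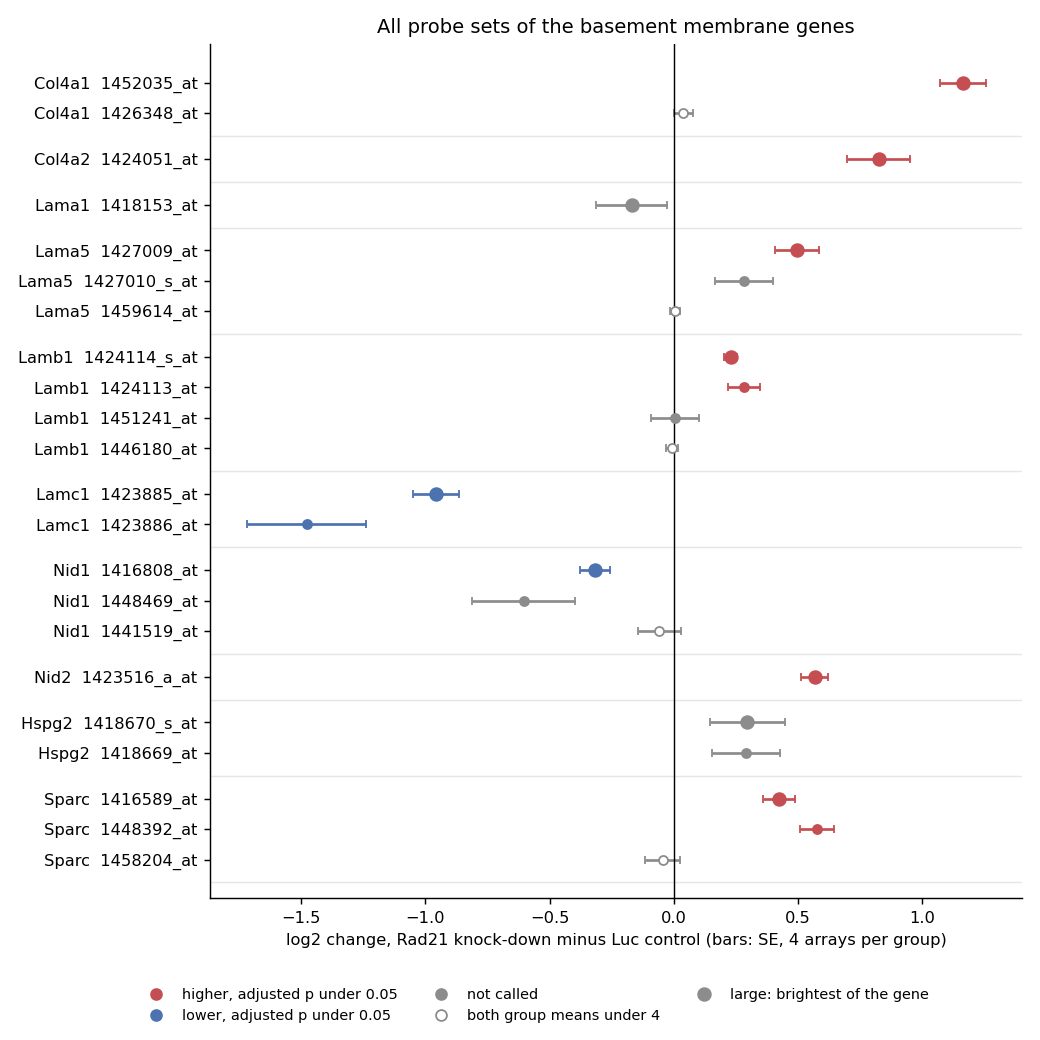
Change of all 22 probe sets of the 10 genes, as the mean of the Rad21 arrays minus the mean of the Luc arrays on the log2 scale, with the SE (4 arrays per group). Large points are the brightest probe set of a gene, red and blue points passed the test, and open points had both group means under 4. The 5 open points all lie close to 0, and no gene has called probe sets on both sides of 0.

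Across the probe sets, the 5 that were dim in both groups were not called. Of the 17 with a mean of 4 or more in a group, 11 were called, and where a gene had more than 1 called probe set (Lamb1, Lamc1 and Sparc) these had the same sign. None of the 8 gene calls was lost when any single array was left out.

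Because products of these genes assemble with each other, the difference between 2 genes was taken on each array and compared between the groups for 5 pairs, which asks whether the 2 genes changed by unequal amounts. The test was an exact permutation over the 70 assignments of the 8 arrays (two-sided), and the smallest p this design allows is 0.0286. In 3 of the pairs both genes were without overlap between the groups and went in opposite directions, so that their difference had to part the groups and the test could give only this smallest p. For these 3 pairs the shift is a description and no p is given. Signals of different probe sets are not on a common scale, so only the shift of the difference is read, not its height.

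Lamb1 and Lamc1, whose products are partners in laminin trimers, drew apart. Lamb1 minus Lamc1 was 1.15, 1.09, 0.93 and 0.86 on the Luc arrays and 2.24, 2.14, 2.27 and 2.12 on the Rad21 arrays. The shift was 1.19 ± 0.08 SE on the log2 scale, or 2.27-fold in favour of the beta chain. Lama1 minus Lamc1 shifted the same way, from -0.79, -0.85, -0.76 and -0.68 to 0.25, 0.14, 0.00 and -0.32, by 0.79 ± 0.13 SE, although Lama1 alone was not called. Its exact permutation p was 0.0286, which adjusted over all 5 pairs was 0.0357 and over the 2 pairs that the calls did not fix was 0.0571, so it does not stand without the fixed pairs. It also missed the threshold when Luc array 1 or Luc array 2 was left out (0.78 and 0.76, exact permutation test, both adjusted p = 0.0714).

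Nid1 minus Nid2 went from -0.10, -0.10, -0.02 and -0.20 in the control to -1.03, -0.95, -1.06 and -0.92 in the knock-down. The shift was -0.88 ± 0.05 SE, with an SD of 0.07 in both groups. For Col4a1 minus Col4a2 the control arrays gave 3.06, 2.89, 2.79 and 3.05, and the knock-down arrays gave 3.13, 3.78, 3.23 and 2.999. These groups overlapped, and the shift of 0.34 ± 0.18 SE did not pass the test (exact permutation test, p = 0.0857, adjusted p = 0.0857), which does not show that the chains changed equally. Without Rad21 array 4 it was 0.43 and passed (exact permutation test, adjusted p = 0.0286), and on the average over every probe set of a gene, which for Col4a1 includes the dim one, it was -0.22 (exact permutation test, adjusted p = 0.2). Col4a1 minus Lamc1, a pair chosen with both changes known, shifted by 2.12 ± 0.18 SE.

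**Figure D3:**
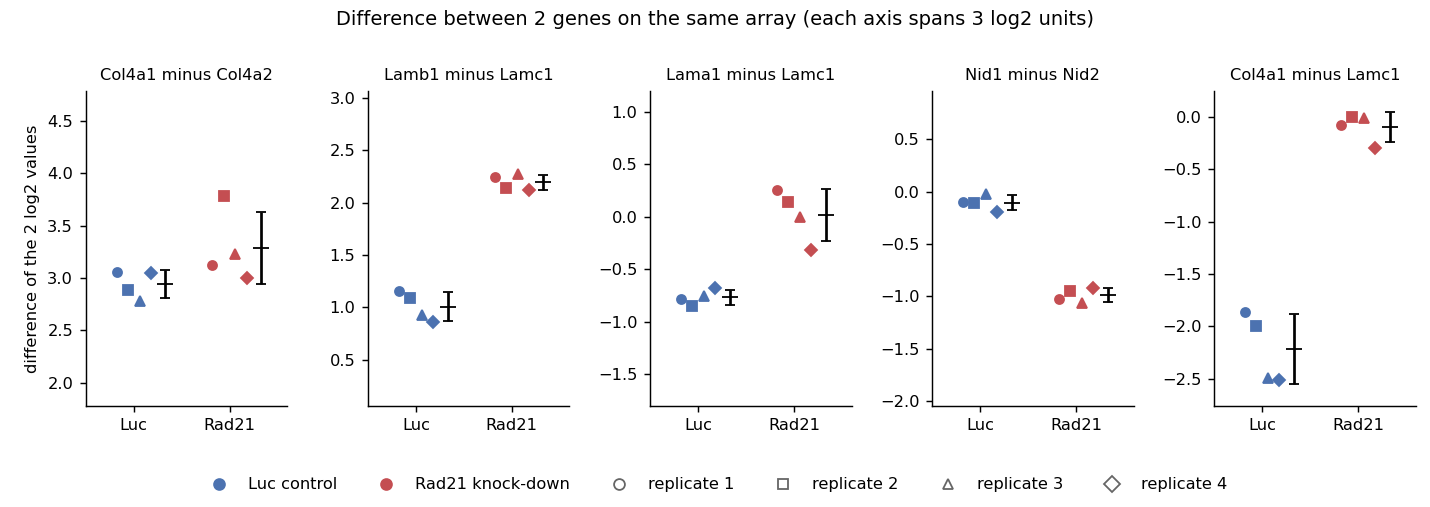
Difference between the log2 values of 2 genes on the same array, for 5 pairs, on the 4 Luc and the 4 Rad21 arrays, with bars for mean and SD per group (n = 4) and a symbol for each replicate. Each vertical axis spans 3 log2 units. The groups are apart for all pairs but Col4a1 minus Col4a2, where Rad21 array 4 lies among the control arrays.

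The arrays carried a second division. Over all probe sets the first principal component, with 66.2% of the variance, parted the knock-down from the control. Along the next one, with 11.6%, replicates 1 and 2 of either group lay on one side and replicates 3 and 4 on the other. No label gives a batch for this division, so the members were also fitted within each set of replicates, with 2 arrays per group. In replicates 1 and 2, 9 of the 22 member probe sets were called, against 13.7% of all probe sets, and in replicates 3 and 4, 8 of 22 were called, against 10.2%. The change kept its sign in both sets for 9 of the 10 genes. Col4a1 changed by 1.08 and 1.24, Lamc1 by -0.81 and -1.10, Nid2 by 0.66 and 0.47 and Sparc by 0.45 and 0.39 in the first and second set, and each of these 4 was called in both. Col4a2 changed by 0.60 and 1.05 and was not called in replicates 1 and 2 alone (limma, adjusted p = 0.0983). Lama5, Lamb1 and Nid1 were not called in replicates 3 and 4 alone (limma, adjusted p = 0.0898, 0.0592 and 0.0848), where they changed by 0.56, 0.20 and -0.41.

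Lama1 was the exception in sign, with a change of 0.21 in the first set and of -0.54 in the second. The difference between the sets passed the test for 1 of the 22 member probe sets, that of Lama1 (limma interaction, adjusted p = 0.0383), and for 0.777% of all probe sets. At its brightest probe set Hspg2 rose in the first set (0.53, limma adjusted p = 0.00651) and was not called in the second (0.06, limma adjusted p = 0.833). The difference between these Hspg2 values did not pass the test (limma interaction, adjusted p = 0.337). The other Hspg2 probe set, 1418669_at, did not show this division. It changed by 0.26 and 0.32 in the first and second set and was called in neither (limma, adjusted p = 0.696 and 0.128).

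**Figure D4:**
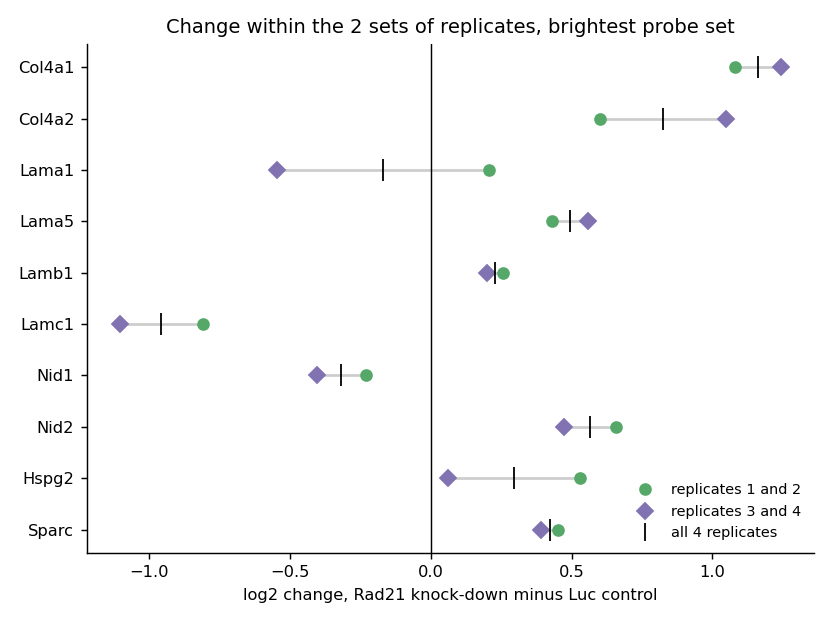
Change of each gene at its brightest probe set (Rad21 minus Luc, log2) within replicates 1 and 2 (first set) and replicates 3 and 4 (second set), each with 2 arrays per group, and over all 4 replicates. For 9 genes both points lie on the same side of 0, and for Lama1 they lie at 0.21 and -0.54.

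Around the 10 genes, 5 lists of related genes were read from the same comparison, each gene by its brightest probe set. Of 79 listed genes 76 were measured, of which 18 rose and 6 fell (over all genes 10.1% were called higher and 12.6% lower), and the medians of the lists lay between 0.02 and 0.11 on the log2 scale. The remaining collagen IV and laminin chains had little signal: 8 of 10 measured were under 4 in both groups, and the only one called, Lamb3, a chain of an epithelial laminin, rose by 0.77 ± 0.14 while staying under 4 (limma, adjusted p = 0.0101). In replicates 3 and 4 alone Lamb3 was not called (limma, adjusted p = 0.0803). Among 18 other basement membrane components, 9 of them under 4 in both groups, 3 rose and 0 fell. These were Npnt (1.63 ± 0.26), an integrin ligand, Pxdn (0.93 ± 0.10), the peroxidase that cross-links collagen IV, and Fbln1 (0.18 ± 0.04), a fibulin. Npnt was called at 2 of its 5 probe sets, and its brightest was not called in replicates 3 and 4 alone (limma, adjusted p = 0.0751). The call of Fbln1 was lost on leaving out any of 4 single arrays (highest adjusted p = 0.0616, limma).

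Of 15 matrix receptors 6 rose and 1 fell, where 10.1% of all genes were called higher and 12.6% lower. Of the 15, 4 were under 4 in both groups. The largest rises were those of the heparan sulfate proteoglycan Sdc4 (0.91 ± 0.14), the integrin chains Itgav (0.82 ± 0.12) and Itgb1 (0.72 ± 0.07), the collagen receptor kinase Ddr1 (0.79 ± 0.05) and the proteoglycan Sdc1 (0.50 ± 0.06). Dag1, which encodes dystroglycan, also rose (0.43 ± 0.06, limma adjusted p = 0.00404) and was called at 4 of its 4 probe sets. At its brightest probe set Dag1 was not called in replicates 1 and 2 alone (limma, adjusted p = 0.0586). Itga6, the alpha chain of the laminin-binding integrin of ESC, fell by 0.46 ± 0.07 on the log2 scale (limma, adjusted p = 0.00349). Itga6 and Itgb1, which pair in that integrin, were thus called in opposite directions at their brightest probe sets. Of the 2 Itga6 probe sets 2 fell, and of the 6 Itgb1 probe sets 2 rose and the others were not called. Itgav was called at 1 of 5 probe sets, Ddr1 at 4 of 8 and Sdc1 at 2 of 4. Itgb5, not called at its brightest probe set, fell at 2 of 4.

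Of 17 genes that process and export matrix proteins, 4 rose and 4 fell, against 10.1% of all genes called higher and 12.6% lower. Only 1 of the 17 was under 4 in both groups. Serpinh1, the collagen chaperone HSP47, rose 2.23-fold (log2 change 1.15 ± 0.11 SE, limma adjusted p = 5.79e-04), a change of about the size of that of Col4a1. The collagen lysyl hydroxylase Plod2 (0.94 ± 0.22), the export receptor Mia3 (0.20 ± 0.04) and P4hb, a subunit of the collagen prolyl 4-hydroxylase (0.17 ± 0.05), also rose. Crtap (-0.41 ± 0.04), of the prolyl 3-hydroxylase complex, Klhl12 (-0.37 ± 0.06), an adaptor in collagen export, the collagen galactosyltransferase Colgalt1 (-0.19 ± 0.04) and the coat protein Sec23a (-0.18 ± 0.05) fell. The calls of Plod2, Mia3, P4hb, Colgalt1 and Sec23a were each lost on leaving out any of 4 to 7 of the 8 arrays, with adjusted p up to 0.113 (limma). Mia3 was called at 1 of its 4 probe sets. Klhl12 was not called in replicates 3 and 4 alone (limma, adjusted p = 0.146).

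Of 16 measured genes of matrix cross-linking and turnover 4 rose and 1 fell, against 10.1% of all genes called higher and 12.6% lower. Of the 16, 7 were under 4 in both groups. The protease Adamts1 (1.95 ± 0.07), the gelatinase Mmp2 (1.30 ± 0.16), its membrane-bound activator Mmp14 (0.82 ± 0.05) and the inhibitor Timp2 (0.35 ± 0.09) rose, and the inhibitor Timp1 (-0.35 ± 0.07) fell. The Timp2 call was lost without any of 7 single arrays (highest adjusted p = 0.0960, limma), and Timp2 was called at 1 of its 6 probe sets. Adamts1 and Mmp2 had the largest changes of this list and moved in the same direction as the collagen IV chains.

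**Figure D5:**
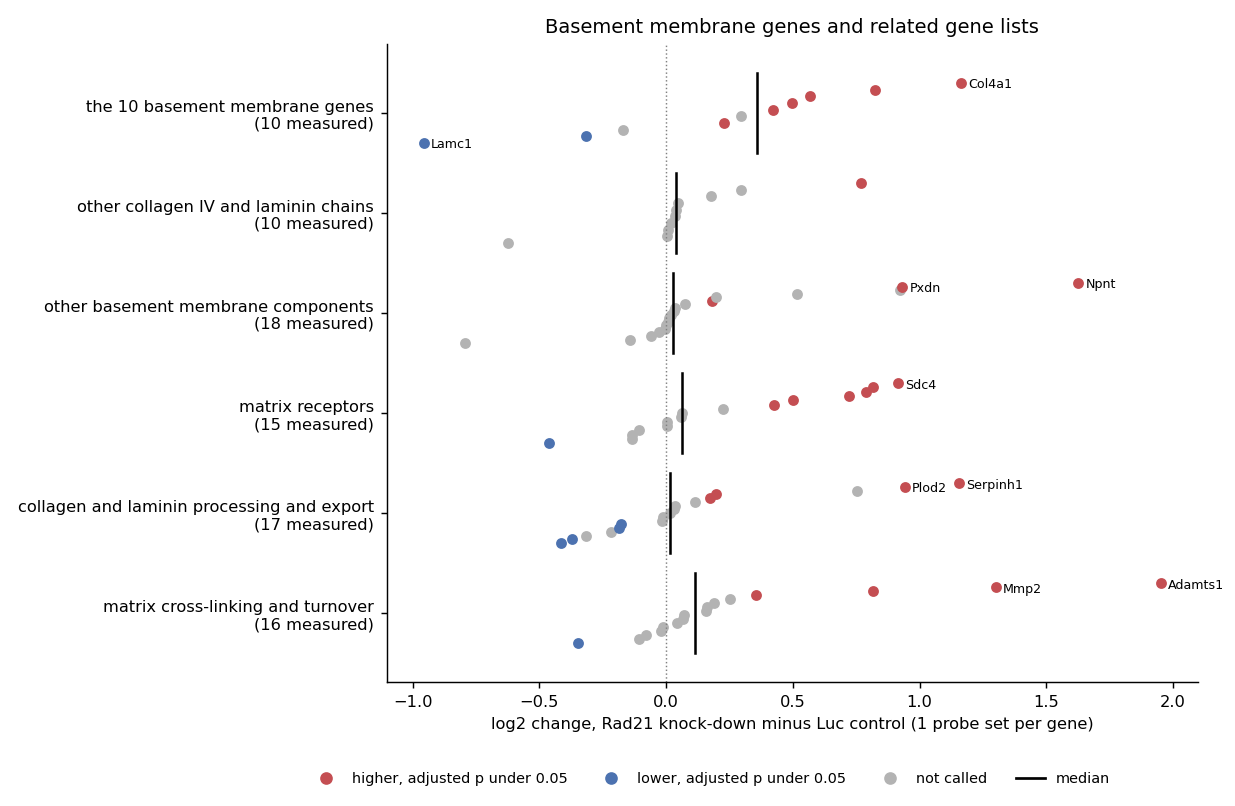
Change (Rad21 minus Luc, log2) of the 10 basement membrane genes and of the measured genes of 5 related lists, 1 probe set per gene, with red for called higher, blue for called lower, grey for not called and a black line at the median of each list. The median of the 10 genes is 0.36, and those of the related lists lie between 0.02 and 0.11.

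Markers of cell types that secrete these proteins, or that a culture could hold, were read beside the members. For comparison, 10.1% of all genes were called higher and 12.6% lower. The ESC markers had the highest signal, with an average from 13.76 to 13.81 on the Luc arrays and from 13.21 to 13.26 on the Rad21 arrays, and 8 of 10 fell. Of 10 markers of primitive and parietal endoderm 2 rose, Dab2 (2.06 ± 0.20) and Pth1r (0.83 ± 0.15), and the list average went from between 3.02 and 3.14 to between 3.45 and 3.53. Dab2 was called at 1 of its 4 probe sets. Pth1r stayed under 4 in both group means and was not called in replicates 3 and 4 alone (limma, adjusted p = 0.233). The other 8 were not called over all arrays, and the defining factors Gata4, Gata6, Sox7 and Sox17 had means under 4 in both groups. Sox7 was called in replicates 3 and 4 alone (0.43, limma adjusted p = 0.0313). It was at 3.94 and 4.04 on Rad21 arrays 3 and 4, against 3.59 and 3.53 on Luc arrays 3 and 4. In replicates 1 and 2 alone its change was -0.11 and was not called (limma, adjusted p = 0.685). Of 10 measured markers of visceral endoderm 4 rose, Foxa2 (4.63 ± 0.16), Lrp2 (1.72 ± 0.23), Apob (1.59 ± 0.11) and Amn (0.90 ± 0.17), with list averages of 3.80 to 3.92 in the control and 4.58 to 4.94 in the knock-down, while Hnf4a, Afp, Ttr and Apoa1 were under 4 in both groups. Cited1 of the same list went the other way, by -0.94 ± 0.26 with no overlap between the groups, just short of a call (limma, adjusted p = 0.0506). It was called in replicates 1 and 2 alone (-1.32, limma adjusted p = 0.00208) and with the replicate number as a block (limma, adjusted p = 0.0391), and Amn was not called in replicates 1 and 2 alone (limma, adjusted p = 0.160). Cubn, also of this list, was higher by 1.11 ± 0.41 with no overlap and was not called (limma, adjusted p = 0.140). In replicates 3 and 4 alone Cubn was called (1.86, limma adjusted p = 0.0236). Of 10 measured fibroblast markers 0 rose and 1 fell, Thy1 (-0.56 ± 0.13), a call lost on leaving out any of 4 single arrays (highest adjusted p = 0.0709, limma). The group means of Col1a1, Col1a2 and Col3a1 were under 4, but Col3a1 was at 4.69 and 4.25 on Rad21 arrays 1 and 2, against 3.15 and 3.10 on Luc arrays 1 and 2, a change of 1.35 that was called in this set (limma, adjusted p = 0.0127) and not over all arrays (0.80 ± 0.33, limma adjusted p = 0.189). The averages of the fibroblast list overlapped between the groups, 3.52 to 3.67 and 3.58 to 3.73. The part of these cell types in the changes of the basement membrane genes was not tested.

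Signal quality did not differ detectably between the groups. The 3′ minus 5′ difference of the Actb control probe sets ranged from 0.37 to 0.46 on the Luc arrays and from 0.38 to 0.44 on the Rad21 arrays (exact permutation test, p = 1), and that of Gapdh from -0.28 to -0.23 and from -0.30 to -0.25 (exact permutation test, p = 0.514). Array medians lay between 3.08 and 3.16, and 4 arrays per group limit the precision of every value.

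The genes whose pattern over the 8 arrays was most like that of Col4a1 and of Lamc1 were found among 8840 genes with a mean of at least 6, by the root mean square difference between the values, each taken from the gene's own control mean. For Col4a1 these were Flrt3 (0.063), Igdcc3 (0.082) and Nsmaf (0.088), which rose by 1.22, 1.13 and 1.22 on the log2 scale. For Lamc1 they were Zic2 (0.088), Fahd1 (0.092) and Zic5 (0.093), with changes of -0.97, -0.93 and -0.88. Most of this likeness lies in the difference between the groups, and it is given as a description.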

How the data were processed

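Total RNA was hybridised to 8 Affymetrix mouse arrays. The authors' deposited values are log2 signals per probe set, computed with GCRMA in Partek 6.4 according to the labels and methods. GCRMA brings arrays to a common distribution and draws dim probe sets to a low plateau, so a change of all transcripts in one direction, or of a dim probe set, can be missed. Of 45101 probe sets, 64 controls were left out. Gene symbols came from the platform annotation, with 34945 probe sets of a single symbol. All 10 members matched RefSeq GRCm38.p6 by symbol and Entrez ID. Where the probes lie in the transcripts is not given in the sources used here.

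Groups came from the labels. All probe sets were fitted together with limma 3.58.1 (lmFit and eBayes, R 4.3.3, data.table version 1.17.8) without a block, two-sided, with Benjamini-Hochberg adjustment over 45037 probe sets and a call at an adjusted p under 0.05. The script was tested on simulated data. Members and lists were chosen with earlier results of these data known. Named genes are the members, Rad21, up to 5 called genes per direction in each list and the 3 genes most like Col4a1 and Lamc1. Gata4, Gata6, Sox7, Sox17, Hnf4a, Afp, Ttr, Apoa1, Cited1, Cubn, Dag1, Itgb5, Col1a1, Col1a2 and Col3a1, and the genes of the last section, were named after their values were seen. Alternatives were the methods' plain analysis of variance, a variance trend, blocks, each replicate set, a minimum mean of 4, quantile normalization, centring, array weights, leaving out arrays, other thresholds and other summaries per gene. Plots were drawn with matplotlib 3.10.9.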

Additional observations from a re-analysis of the deposited data

Results flagged for a closer look

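The change of Lama1 differed between replicates 1 and 2, where it was 0.21 on the log2 scale, and replicates 3 and 4, where it was -0.54 (limma interaction, adjusted p = 0.0383). This is a test of the difference between the sets itself. The sets were taken from the principal components of these arrays and not from the labels, and each holds 2 arrays per group. Within its set each group was close together, at 8.63 and 8.63 against 8.82 and 8.85 in the first set and at 8.96 and 9.10 against 8.54 and 8.43 in the second.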

How the results depend on the processing

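The 6 rises and 2 falls among the members kept their direction under all alternatives, and in 191 of 200 comparisons with an alternative the call was also kept. The others were 5 calls lost, 4 of them in a single set of replicates and 1, that of Nid1, at the stricter threshold below, and 4 gained, 3 of them for Hspg2 and 1 for Lama1. Averaging all probe sets of a gene, dim ones included, brought the changes of Col4a1, Lama5 and Lamb1 down to 0.60, 0.26 and 0.13, each still called. With this average Hspg2 was called as well, so that 7 members were higher and 2 lower. At an adjusted p under 0.01, 1 member was called lower, 3 genes of the related lists were called lower (against 6) and 3893 probe sets were called in all. In replicates 3 and 4 alone 3 related genes were called lower. The pairs of genes shifted in each set of replicates as over all arrays, Lamb1 minus Lamc1 by 1.07 and 1.30, Lama1 minus Lamc1 by 1.02 and 0.56, Nid1 minus Nid2 by -0.89 and -0.88 and Col4a1 minus Lamc1 by 1.89 and 2.35 in the first and second set, where 2 arrays against 2 cannot reach 0.05. Adjusted over the 2 pairs that the calls do not fix, a choice made after seeing the data, Lama1 minus Lamc1 (0.79) missed the threshold (exact permutation test, adjusted p = 0.0571). On leaving out single arrays Lama1 minus Lamc1 ranged from 0.71 to 0.90 and Col4a1 minus Col4a2 from 0.17 to 0.43, and the latter passed after quantile normalization (0.42, exact permutation test, adjusted p = 0.0286). With the replicate number as a block the calls numbered 6224 over all probe sets, against 6697 without a block. Of the members 6 were higher and 2 lower, as without it, with 16 and 4 of the related genes. With replicates 1 and 2 against 3 and 4 as a block the calls numbered 8177. The members again gave 6 higher and 2 lower, and the related genes 20 and 7. The deviations of same-numbered arrays correlated at 0.02, 0.13, 0.07 and 0.13, and not every array correlated best with its own number, so the numbers were not taken to pair the arrays.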

Other observations

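Several related genes had sizeable differences that did not pass the test over all arrays. The differences were 0.92 ± 0.29 for Frem2 (limma, adjusted p = 0.0794), a protein of the epithelial basement membrane, 0.75 ± 0.24 for P4ha2 (limma, adjusted p = 0.0904), a catalytic subunit of the collagen prolyl 4-hydroxylase, -0.80 ± 0.30 for Egfl6 (limma, adjusted p = 0.154) and -0.62 ± 0.26 for the laminin chain Lama3 (limma, adjusted p = 0.197). Frem2 was called in replicates 1 and 2 alone (0.96, limma adjusted p = 0.0112) and with the replicate number as a block (limma, adjusted p = 0.0376). The pooled value of P4ha2 describes neither set of replicates. It changed by 0.29 in replicates 1 and 2 and by 1.22 in replicates 3 and 4. This difference between the sets passed the test (limma interaction, adjusted p = 0.0265).

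Among markers of cell types outside the endoderm, 1 of 7 endothelial genes rose, the angiopoietin receptor Tek (1.53 ± 0.06, limma adjusted p = 1.31e-05), with list averages of 4.08 to 4.21 in the control and 4.35 to 4.48 in the knock-down. Eng was higher by 0.55 ± 0.20 with no overlap and was not called at its brightest probe set (limma, adjusted p = 0.145). That probe set was called in replicates 1 and 2 alone (0.91, limma adjusted p = 0.00283), and 1 of the 2 Eng probe sets rose over all arrays. Esam was called lower in replicates 1 and 2 alone (-0.50, limma adjusted p = 0.0186) and was not called over all arrays (limma, adjusted p = 0.262). Of 5 measured trophoblast markers 2 rose, Krt7 (2.83 ± 0.14, limma adjusted p = 2.81e-05) and Cdx2 (1.10 ± 0.15, limma adjusted p = 0.00244, and 0.0562 in replicates 3 and 4 alone), with list averages of 3.41 to 3.53 and 4.13 to 4.26. Ascl2 was called lower in replicates 1 and 2 alone (-0.62, limma adjusted p = 0.0063) and not over all arrays (-0.32 ± 0.14, limma adjusted p = 0.209). Over all genes 10.1% were called higher.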
